A study of Arabidopsis thaliana with 6 samples.

Results

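OE3-1 peaks with an OE17-4 peak close beside them are described here. They are peaks of 1 overexpressor line of AtDEK3 whose midpoint lay within 1000 bp of the midpoint of a peak of a second line, on the same chromosome. The set held 359 of the 5332 OE3-1 peaks, which is 6.73% of that list, out of 12491 peaks in all 3 lists. Their nearest OE17-4 peaks were 344 in number, since 15 OE17-4 peaks were nearest to 2 members each. Counted from the other list, 352 of the 3426 OE17-4 peaks, or 10.3%, had an OE3-1 midpoint within 1000 bp. Both positions entered the choice, so the spacing and the number of members are given as a description with no test.

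The study mapped where AtDEK3 binds by chromatin immunoprecipitation followed by sequencing (ChIP-seq). All samples came from 14-day-old Arabidopsis thaliana seedlings of ecotype Col-0 carrying a transgene for AtDEK3 fused to cyan fluorescent protein (CFP), grown on soil with 16 h light and 8 h dark. A GFP antibody was used, and sequencing gave single-end reads of 36 bp. The 3 ChIP libraries, 1 each from the lines OE3-1, OE9-1 and OE17-4, have 3 inputs that are not analysed here. The sources used here do not give the promoter of the transgene or the number of plants per library, and none of the 6 samples is labelled as a plant without the tagged protein.

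DEK proteins are chromatin proteins of plants and animals that bind DNA and histones and are known for effects on DNA topology, chromatin accessibility and gene expression. DEK3 (AT4G26630) is 1 of a small family of Arabidopsis genes with a DEK domain. In a ChIP-seq experiment, a site bound in several lines gives peaks at the same place in each list, to within the width of the peaks and the length of the sheared fragments. How near the peaks of 2 lines lie to each other is 1 measure of how well the lists match.

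The OE3-1 and OE17-4 lists held 1235876 and 549029 reads in peaks, and the OE9-1 list 814853. The depth of the libraries outside peaks is unknown, so reads are not compared between lines as binding. Each line is 1 library, and members of the set are not replicates of a condition. The spread of the set across members therefore says nothing about how a repeat of either library would fall. All positions are on TAIR10, the build named in the submitters' processing notes.

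Midpoint pairs of the 2 lines were more numerous per 100 bp in the first 200 bp than in any later bin up to 3000 bp. Most pairs within 1000 bp nevertheless lay over 200 bp apart, and the limit of 200 bp was set after the data were seen. Counting every pair of midpoints, 71 pairs lay up to 100 bp apart, 52 lay over 100 and up to 200 bp apart, and 33 lay over 200 and up to 300 bp apart. The 7 bins of 100 bp from there to 1000 bp held 22 to 35 pairs each. Midpoints 2 to 10 kb apart gave a mean of 32.4 pairs per 100 bp. Against that level, the first bin held 2.19 times as many pairs and the second 1.60 times as many. From 200 to 1000 bp there were 244 pairs where the same level gives 259. Single bins between 1000 and 3000 bp ran from 23 to 47 pairs, so the second bin, at 52, was not far above the highest of those and the first bin well above it.

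Both lines had most of their peaks inside genes, and they favoured different depths within them. An expectation was therefore written in closed form from the OE17-4 peak density in each of 10 classes of distance to the nearer end of a protein-coding gene, inside and outside genes. It gave 38.4 pairs in the first bin and 37.7 in the second, so the 71 and 52 pairs observed were 1.85 and 1.38 times as many. Over the distances of 200 to 1000 bp it gave 281 pairs, and the 244 observed were 0.868 times that number. A level above expectation was thus seen in the first 200 bp and not in the remainder of the window. Peaks of 1 list seldom lay close together, with 68 neighbours within 500 bp in OE3-1 and 1 in OE17-4. The expectation does not allow for this, and its effect on the bins was not tested.

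**Figure D1:**
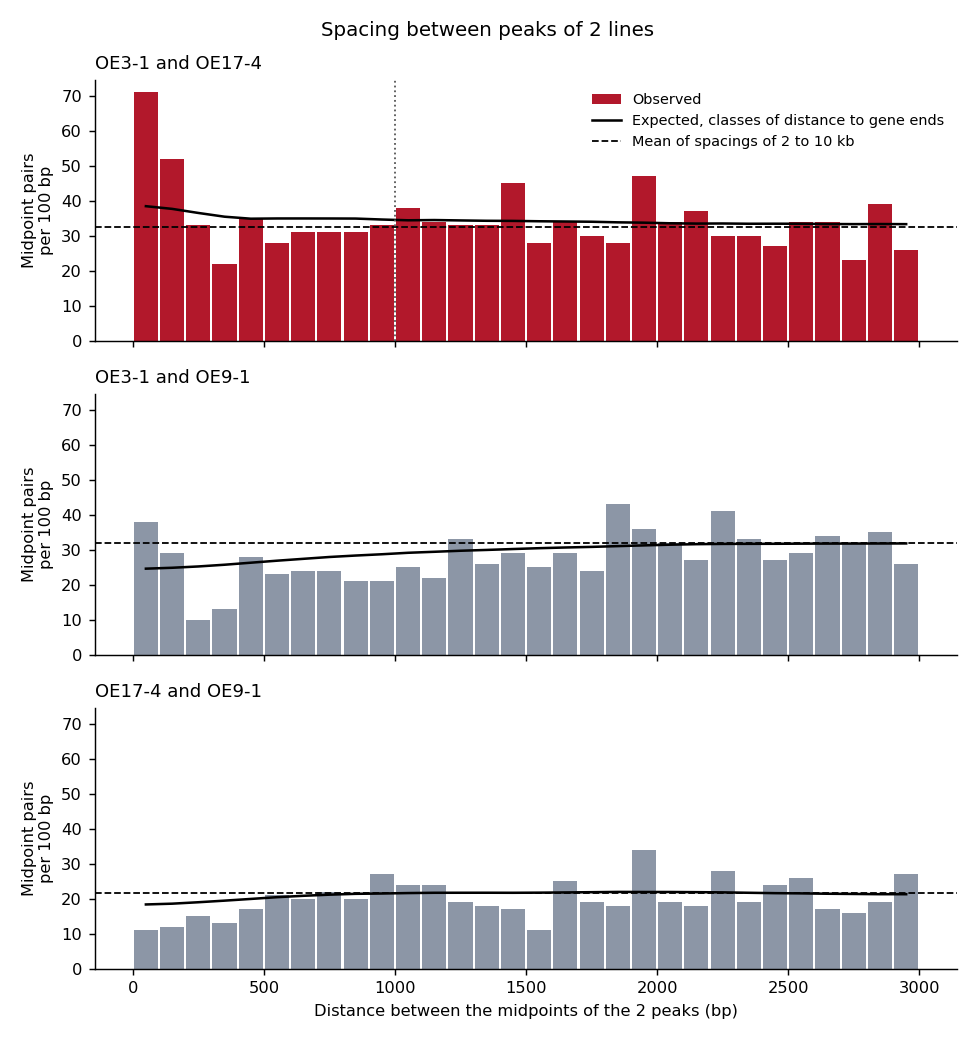
Number of midpoint pairs per 100 bp of distance (bars) for each pair of lines, up to 3000 bp. The solid line is the expectation from classes of distance to gene ends, the dashed line the mean level at 2 to 10 kb, and the dotted line the limit of 1000 bp. The OE3-1 and OE17-4 pairs stand at 71 and 52 in the first 2 bins and between 22 and 35 in the rest of the window.

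The other pairs of lines had different profiles over the same distances. OE3-1 and OE9-1 had 38 and 29 midpoint pairs in the first 2 bins, then 10 and 13 in the next 2. Their gene-end expectation was 24.6 pairs in the first bin, and 38 is 1.55 times that number. Against their own mean level at 2 to 10 kb the first bin held 1.19 times as many pairs and the second 0.908 times. Within 250 bp the ratio was 1.15 with gene-end classes and 0.860 with even placement, so its direction depended on the expectation. OE17-4 and OE9-1 had 11 pairs in the first bin against 18.4 expected, or 0.599 times as many. The pairs of lines share lists with each other, so these profiles are not independent of one another.

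Because the window of 1000 bp reaches well past 200 bp, the size of the whole set said little of the close pairs. With OE17-4 midpoints spread evenly along each chromosome, 297 OE3-1 peaks would have one within 1000 bp, and the 359 observed were 1.21 times that number (interval 1.09 to 1.34, from the exact 95% binomial interval of the count). With separate OE17-4 densities inside and outside protein-coding genes, 369 were expected and the ratio was 0.974 (0.878 to 1.08). With the gene-end classes, 345 were expected and the ratio was 1.04 (0.938 to 1.15). OE17-4 densities in bins of 100 kb gave 309 and a ratio of 1.16 (1.05 to 1.28). The level at spacings of 2 to 10 kb gave 315 and a ratio of 1.14 (1.03 to 1.26). Only the densities inside and outside genes put the set as a whole below expectation, so the direction depended on which expectation was used.

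At shorter distances the direction was the same under each of these. Within 250 bp, 142 OE3-1 peaks had an OE17-4 midpoint. Even placement gave 75.9, densities inside and outside genes gave 97.9, and gene-end classes gave 93.7. The ratios were 1.87, 1.45 and 1.51 in that order, with lowest bounds of 1.58, 1.22 and 1.28. Within 500 bp, 212 peaks were observed and 180 were expected from the gene-end classes (ratio 1.18, 1.03 to 1.35). Densities inside and outside genes gave 191 at that distance, with a ratio whose interval includes equality (1.11, 0.966 to 1.26). Within 2000 bp the numbers were 684 and 654 (ratio 1.05, 0.974 to 1.12). These intervals cover counting error only and treat peaks as independent. They are a description and not a test, since both positions entered the choice of the set. None of the expectations allows for stretches of the genome to which such short reads cannot be assigned.

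**Figure D2:**
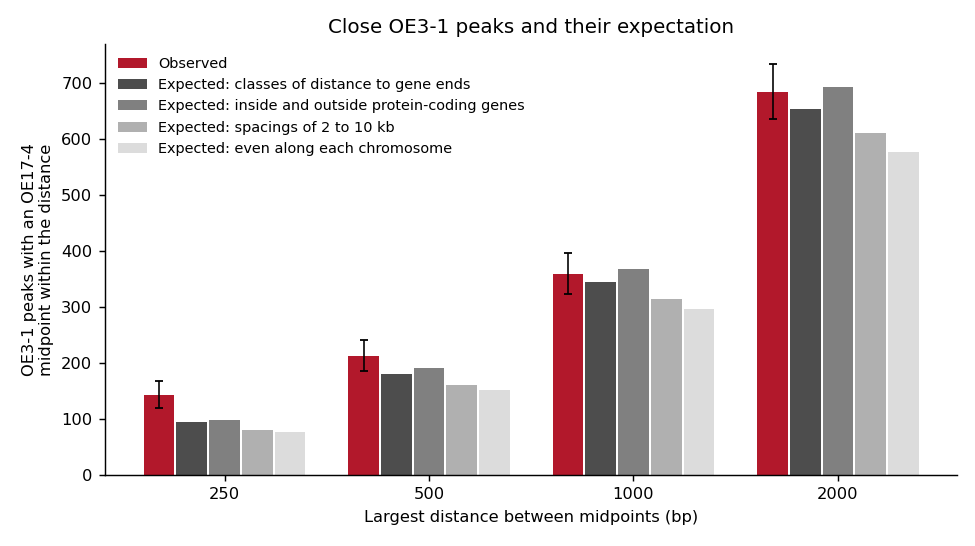
Number of OE3-1 peaks with an OE17-4 midpoint within 250, 500, 1000 and 2000 bp (red, with exact 95% binomial intervals) beside 4 closed-form expectations (grey). The observed number is above all 4 expectations at 250 and 500 bp, and below the one for inside and outside protein-coding genes at 1000 and 2000 bp.

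Overlap of at least 1 bp was found for 71 members, which are 19.8% of the set and 1.33% of the OE3-1 list. They overlapped 71 different OE17-4 peaks. The shared stretch had a median of 43 bp and ranged from 1 to 149 bp. In 23 of them the OE3-1 peak lay wholly inside the OE17-4 peak, and in 1 the reverse was true. OE3-1 members had a median width of 59 bp and OE17-4 partners one of 137 bp, so the OE3-1 peaks were in general the narrower ones. A further 53 members had a gap of at most 100 bp between the peak edges without touching. The median gap of the 288 members without overlap was 401.5 bp, and the median spacing of midpoints over the whole set was 402 bp.

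OE3-1 peaks lay at the lower coordinate in 194 members and at the higher coordinate in 165. Most members, 351, had a single OE17-4 midpoint within the window, and 8 had more. Members made up 6.38% to 7.38% of the OE3-1 peaks on each of the 5 chromosomes, lowest on chromosome 1 and highest on chromosome 2. Just inside the limit lay the pairs in AT1G70100, in ARI1 and in AT3G05320, with 994, 989 and 988.5 bp between midpoints. Just outside it were an OE3-1 peak in BAM4 at 1002 bp, one named for TSB1 at 1003.5 bp and one in AT3G53100 at 1006.5 bp.

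Protein-coding genes held the midpoint of 328 of the 359 OE3-1 members, or 91.4% (exact 95% interval 88.0 to 94.1%). The other OE3-1 peaks had 90.2% there (89.3 to 91.0%), so members resembled the rest of their own list. The OE17-4 partners stood apart from theirs. Of 344 partners 89.8% (86.1 to 92.8%) lay in protein-coding genes, against 72.6% (71.0 to 74.2%) of the 3082 other OE17-4 peaks. Pseudogenes and transposable element genes held 1.16% of partners and 10.7% of the other OE17-4 peaks, and intergenic sequence over 1 kb from protein-coding genes held 1.45% and 8.37%. Partners were chosen by a nearby OE3-1 peak, and the OE3-1 list itself had 1.46% and 1.65% of its midpoints in these 2 classes.

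**Figure D3:**
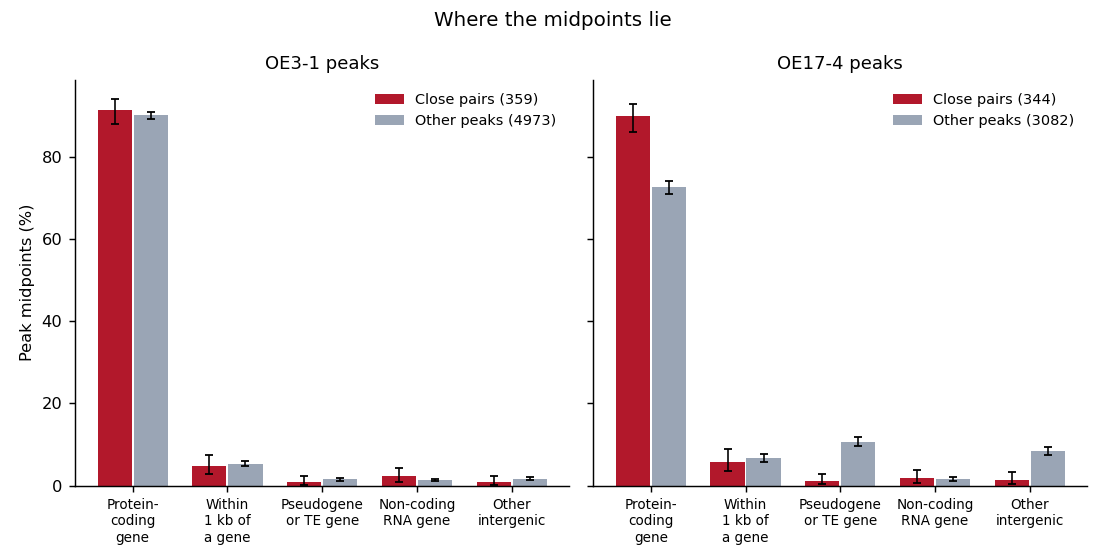
Share of peak midpoints in each class of annotation for close pairs (red) and for the other peaks of the same list (grey), with exact 95% binomial intervals. Close OE17-4 peaks lie in protein-coding genes in 89.8% of cases and the other OE17-4 peaks in 72.6%, while both OE3-1 bars are near 90%.

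Most pairs fell within 1 gene. In 288 members, 80.2% (75.7 to 84.2%), both midpoints lay in the same protein-coding gene. In 24 they lay in different genes, in 16 the OE3-1 midpoint alone was in a gene, in 11 the OE17-4 midpoint alone, and in 20 neither. Pairs up to 200 bp apart shared a gene in 109 of 123 cases, or 88.6%, and pairs farther apart in 179 of 236, or 75.8%. Distance and a shared gene are tied by construction, and no test is given. The gene columns of the 2 lists named the same gene in 307 members.

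The 288 pairs lay in 282 genes, which are 1.03% of the 27444 protein-coding genes of the annotation. These genes are 6.61% of the 4268 genes with an OE3-1 midpoint and 11.3% of the 2491 genes with an OE17-4 midpoint. Of the 517 genes that held a midpoint of both lines, 282 had a close pair and 235 had their peaks farther apart. The genes with a close pair had a median length of 2992 bp and ranged from 228 to 23544 bp. The 235 others were longer, with a median of 4411 bp, and the median of all protein-coding genes was 2078 bp. Gene length and the distance possible within a gene are tied as well. In the same-gene pairs, OE3-1 midpoints lay a median of 771 bp from the nearer gene end and OE17-4 midpoints 620.5 bp. The other OE3-1 and OE17-4 peaks in genes had medians of 753 and 456 bp.

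Next are the 10 members with the lowest summed ranks of both lists by the authors' false discovery rate (FDR). An FDR estimates the share of false peaks among those called at that level. First was AT1G27752 on chromosome 1, where the OE3-1 peak had 263 reads and the OE17-4 peak 258, with midpoints 56.5 bp apart. An OE9-1 peak of 273 reads lay 252.5 bp from the OE3-1 midpoint in the same gene. SIP1A (AT3G04090), an aquaporin of the small basic intrinsic type, followed. Its OE3-1 peak at chr3:1072706-1072769 held 284 reads at an FDR of 0.05%. The OE17-4 peak at chr3:1072741-1072866 held 221 reads at 0.00684%, and the 2 overlapped by 29 bp. Among the 10 members, only the pairs in these 2 genes overlapped.

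AT2G41550 held 2 members that share an OE17-4 peak, although the gene columns name GPDHC1 for that peak and for the first of the OE3-1 peaks. On chromosome 2 its OE3-1 peaks at chr2:17329301-17329447 and chr2:17330295-17330323 held 693 and 387 reads, and the OE17-4 peak at chr2:17329570-17329768 lay between them with 183 reads. The peak of 693 reads was the highest OE3-1 value of the set. AHA10 (AT1G17260), a proton pump known for its role in pigment formation in the seed coat, had 374 and 185 reads in OE3-1 and OE17-4. Its midpoints were 127 bp apart and the peaks did not touch.

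Wider pairs made up the rest of these members. AtRZ-1b (AT1G60650), which encodes a zinc finger RNA-binding protein, had the lowest OE17-4 FDR of the set at 2.47e-07%, with 226 reads. Its OE3-1 peak of 295 reads lay 874 bp away. The cytochrome P450 gene CYP71B29 (AT1G13100) had 229 and 171 reads in OE3-1 and OE17-4 at 817 bp, and NTMC2T4 (AT3G61050), for a C2 domain protein, had 336 and 180 at 870 bp. In the pairs at EMB3126 (AT3G63490) and at the syntaxin gene SYP112 (AT2G18260) the OE17-4 midpoint lay outside the gene that held the OE3-1 midpoint. In each pair the gene columns nevertheless name that gene for both peaks. EMB3126, named for an embryo-defective mutant, had 303 OE3-1 and 253 OE17-4 reads at 610 bp, and SYP112 had 336 and 156 at 831.5 bp. Most of the pairs that lead by FDR thus did not overlap. The same held for the whole set, in which 19.8% of members overlapped, so this does not set strong peaks apart. A spacing within 1000 bp was the rule by which all members were chosen.

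The 6 closest pairs were mixed in rank, with FDR values of 1.57% to 3.79% in OE3-1 and 5.04e-06% to 4.51% in OE17-4. In AT2G20590 they were 1.5 bp apart, with 202 reads and an FDR of 3.59% in OE3-1, and 310 reads and an FDR of 5.04e-06% in OE17-4. The whole OE3-1 peak of 67 bp lay inside the OE17-4 peak at chr2:8867647-8867790. Next were UBP20 (AT4G17895), a ubiquitin-specific protease gene, at 5.5 bp, and AT5G51150 at 7.5 bp. The MADS-box gene AGL94 (AT1G69540) followed at 8.5 bp, then AT5G13030 at 11 bp and AT5G62080 at 11.5 bp. Their reads in OE3-1 and OE17-4 were 150 and 127 in UBP20, and 208 and 175 in AT5G51150. AGL94 had 232 and 133, AT5G13030 359 and 118, and AT5G62080 201 and 129. In each of the 6 genes the OE17-4 peak contained the OE3-1 peak.

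**Figure D4:**
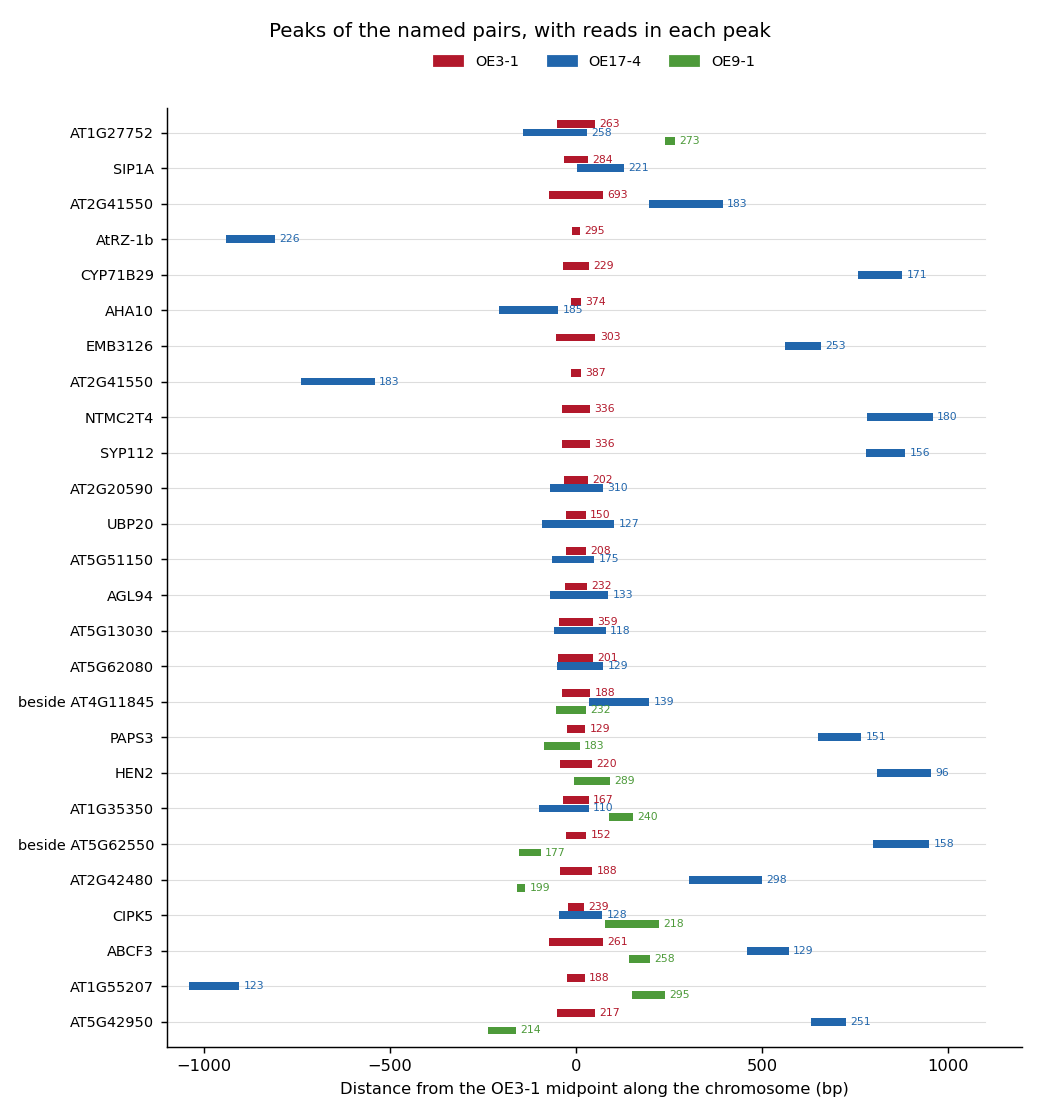
Peaks of OE3-1 (red), OE17-4 (blue) and OE9-1 (green) around the OE3-1 midpoint, in bp along the chromosome, with the reads in each peak. From the top, the 10 pairs that lead by FDR, the 6 closest pairs and the 10 members nearest to an OE9-1 peak. The closest pairs share their position, as in AT2G20590 at 1.5 bp, while AtRZ-1b has its 2 peaks 874 bp apart.

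Among the 123 pairs up to 200 bp apart were genes of well-known function. Those that follow are examples chosen after their values were seen, and gene functions were neither counted nor tested among the pairs. ATU2AF35A (AT1G27650), the small subunit of the splicing factor U2AF, had overlapping peaks at chr1:9615878-9615960 in OE3-1 and chr1:9615796-9615972 in OE17-4, with 236 and 233 reads. TPR2 (AT3G16830), a corepressor of the TOPLESS family, had 184 and 143 reads in overlapping OE3-1 and OE17-4 peaks 49 bp apart. DDL (AT3G20550), which acts in microRNA biogenesis, had 651 and 227 reads at 188 bp, with an overlap of 20 bp. HB-1 (AT1G28420), a homeobox gene, had 292 and 194 reads at 93.5 bp, and its OE17-4 peak is on 1 of the rows that are written in a different form from the rest.

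HAB1 (AT1G72770), a protein phosphatase that restrains abscisic acid responses, had 234 OE3-1 and 156 OE17-4 reads at 137.5 bp. PXY (AT5G61480), a receptor kinase of vascular development, had 290 and 112 reads in overlapping peaks at 55 bp. HK2 (AT5G35750), a cytokinin receptor, had 240 and 122 reads at 168.5 bp. PBS1 (AT5G13160), a kinase guarded by an immune receptor, had 231 and 143 reads at 120 bp, and SRFR1 (AT4G37460), which restrains immune responses, 353 and 205 reads at 75 bp. TWD1 (AT3G21640), an immunophilin needed for auxin transport, had 195 and 203 reads at 79 bp, although the gene columns name CERK1 for this pair.

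PTAC2 (AT1G74850), a protein of the plastid transcription machinery, had 267 and 189 reads in OE3-1 and OE17-4 peaks that overlapped, at 74 bp. HCF136 (AT5G23120), an assembly factor of photosystem II, had fewer reads in OE3-1 than in OE17-4, at 212 and 406, while 308 of the 359 members had more in OE3-1. Over the whole lists the median was 210 reads per peak in OE3-1 and 136 in OE17-4, and the depth of the libraries is unknown. TWD1, AT2G41550 and NTMC2T4 were among 12 genes with 2 members, and no gene had 3.

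Members had the same median of reads as the rest of the OE3-1 list, and OE17-4 partners had slightly more than the rest of theirs. A median of 210 reads was found in members, with a range of 129 to 693, and 210 also in the other OE3-1 peaks, which reached 21288. The OE17-4 partners had a median of 146 reads (interval 141 to 151) and a range of 66 to 470, and the other OE17-4 peaks one of 135 (133 to 137) and a highest value of 15690. The OE17-4 medians differ by 1.08 times, and their intervals treat peaks of 1 library as independent. The 2 OE17-4 sets also differ in annotation, with 89.8% and 72.6% of midpoints in protein-coding genes. Whether the difference in reads goes with that was not tested. The median FDR was 2.48% in members and 2.34% in the other OE3-1 peaks, and 1.10% in partners and 1.06% in the other OE17-4 peaks. The median p-value of the authors' Wilcoxon filter was 0.00456 in members and 0.00331 in the other OE3-1 peaks. In OE17-4 the Wilcoxon medians were 1.295e-05 in partners and 1.07e-05 in the other peaks. The highest Wilcoxon p-value was 0.1 in OE3-1, 9.99e-05 in partners and 0.0008879 in the other OE17-4 peaks. The 2 lists thus do not reach the same limit of this filter. By FDR, members thus lay near the middle of both lists, and the tallest peaks of either list were not among them.

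The ranks of the 2 peaks of a pair had little relation. Reads of the 2 peaks of a pair had a Spearman's rho of 0.12 and a Pearson's r of 0.10 on the log2 scale over 359 members, some of which share an OE17-4 peak. For FDR rho was 0.02. Both peaks ranked in the upper 50% of their list by FDR in 85 members, and both in the lower 50% in 95. OE3-1 alone was in the upper 50% in 85, and OE17-4 alone in 94. Among the 71 overlapping members rho was 0.16 for reads and -0.08 for FDR.

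**Figure D5:**
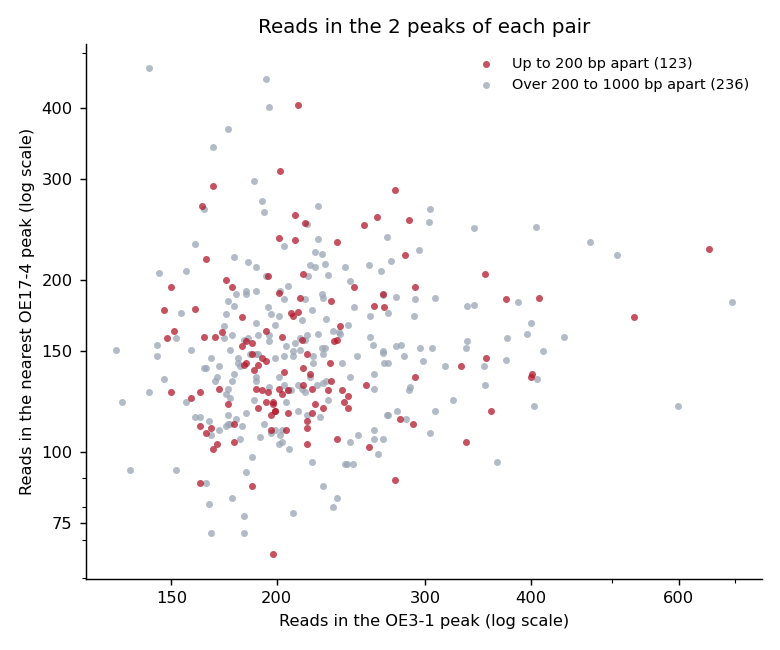
Reads in the OE3-1 peak against reads in the nearest OE17-4 peak for each of the 359 members, both on log scales, with pairs up to 200 bp apart in red and the others in grey. The points form a single cloud between 129 and 693 OE3-1 reads and 66 and 470 OE17-4 reads, and red points are spread through it.

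The members with the highest summed ranks of reads in both lists were AT2G37400, AT4G26630, DDL, AT1G77930 and PUP5 (AT2G24220), a purine permease gene. AT2G37400 had 406 and 248 reads in OE3-1 and OE17-4 at a spacing of 950.5 bp. AT1G77930 had 506 and 221 reads at 839 bp, and PUP5 343 and 247 at 300 bp. Only DDL among these had peaks less than 200 bp apart.

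Forward and reverse reads were unequal in 128 of the 359 OE3-1 members, or 35.7% (30.7 to 40.9%), by an exact binomial test per peak with Benjamini-Hochberg adjustment over the list at 0.05. The same test called 31.3% of all OE3-1 peaks, and 31.0% of those outside the set (29.7 to 32.3%). Pairs up to 200 bp apart had 36.6% called and pairs farther apart 35.2%. In OE17-4 the exact binomial test with that adjustment called 0 of 344 partners and 0.234% of the whole list. At an unadjusted p under 0.05 it called 29 partners, or 8.43%, and 10.2% of the whole list. The OE3-1 list had 40.6% called at that unadjusted level. Reads are not shown to be independent molecules, so the test may be too ready to call. Peaks with more reads are also called more easily, and the 2 lists differ in reads per peak. They differ as well in the authors' normalized difference between strands, with a median of 0.12 in members and 0.07 in partners. What underlies the difference between the lists was not tested.

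OE9-1, which played no part in choosing the set, had a midpoint within 1000 bp of 23 members, or 6.41% (4.10 to 9.46%). The same held for 207 of the other 4973 OE3-1 peaks, or 4.16% (3.62 to 4.76%), and for 4.31% of the OE3-1 list. The difference itself was not tested. In 20 of the 23 the OE9-1 midpoint was also within 1000 bp of the OE17-4 midpoint. It was nearer to the OE3-1 midpoint in 16. Both counts are tied to the choice, since OE17-4 and OE9-1 midpoints already lay within 1000 bp of the OE3-1 midpoint. The OE9-1 peak overlapped the OE3-1 peak in 3 and the OE17-4 peak in 1. From the OE17-4 side, 174 of all 3426 peaks, or 5.08%, had an OE9-1 midpoint within 1000 bp. OE9-1 midpoints lay in a protein-coding gene in 12 of the 23, and in 10 it was the gene shared by the other 2 peaks. Reads in these OE9-1 peaks had a median of 222 and ranged from 92 to 295.

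The OE9-1 peak that came nearest lay beside AT4G11845 on chromosome 4, 14.5 bp from the OE3-1 midpoint, with 188 reads in OE3-1, 139 in OE17-4 and 232 in OE9-1. PAPS3 (AT3G06560), a poly(A) polymerase gene, had an OE9-1 peak overlapping its OE3-1 peak at 38.5 bp, and the OE17-4 peak was 708.5 bp from the OE3-1 midpoint. HEN2 (AT2G06990), an RNA helicase of the nuclear exosome, was alike, with OE9-1 at 44 bp and OE17-4 at 882 bp. Besides the site at AT4G11845, OE17-4 and OE9-1 midpoints both within 200 bp of the OE3-1 midpoint were found in AT1G35350 and in CIPK5 (AT5G10930), a protein kinase of calcium signalling. In CIPK5 the OE3-1 peak spanned chr5:3446968-3447011 with 239 reads, the OE17-4 peak chr5:3446945-3447060 with 128 and the OE9-1 peak chr5:3447068-3447211 with 218. The OE3-1 peak lay inside the OE17-4 peak, and the OE9-1 peak touched neither.

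The rest of the 10 members nearest to an OE9-1 peak had OE17-4 farther off. AT2G42480 had OE9-1 at 147.5 bp and OE17-4 at 401 bp, ABCF3 (AT1G64550), an ABC protein gene, at 171.5 and 516.5 bp, and AT5G42950 at 199.5 and 679.5 bp. The OE3-1 peak named for AT5G62550 had OE9-1 at 124 bp and OE17-4 at 873.5 bp, and the one in AT1G55207 at 195 and 972 bp.

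Genes for DEK domain proteins, topoisomerase 1 and PDS5 cohesin cofactors, SNF2-type remodellers, callose synthases and the THO mRNA export complex were checked as lists. Of their 42 genes 23 held an OE3-1 midpoint, 15 an OE17-4 midpoint and 10 both, while 15.6%, 9.08% and 1.88% of all protein-coding genes did so. A member midpoint lay in 3 of the 42, while 1.18% of all protein-coding genes held one. The lists were drawn up with earlier results of these data known, so the count is no independent sign. It was 1 of 4 DEK domain genes and 2 of 11 remodellers. None of the 7 topoisomerase 1 and PDS5 genes held a member, though all 7 had an OE3-1 midpoint and 3 an OE17-4 midpoint, nor did any of the 12 callose synthase or 8 THO genes.

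ATCHR12 (AT3G06010), a SWI/SNF remodeller, had 226 reads in OE3-1 and 222 in OE17-4, 782.5 bp apart in the same gene. At INO80 (AT3G57300), the ATPase of another remodelling complex, the OE3-1 peak of 189 reads lay in the gene. The OE17-4 peak of 135 reads, 984.5 bp away, lay in the neighbouring AT3G57310, although the gene columns name INO80 for both peaks. The DEK3 gene itself had an OE3-1 peak of 471 reads and its nearest OE17-4 peak of 233 reads 923.5 bp apart. Both rows are among those written in the different form, and reads of the transgene and of the native gene cannot be told apart there.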

How the data were processed

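The authors deposited 1 peak list per ChIP library, so peaks were called per line. Build TAIR10 comes from the submitters' processing notes. How reads were aligned, which program called peaks and whether inputs entered the calls is not given in the sources used here. Per the file headers, the lists give read counts per peak in total and per strand, the FDR in percent, a normalized difference between strands as a fraction, and a Wilcoxon filter p-value. Values were used as deposited, with no normalization.

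Peaks were read from start and end. Repeated regions (1, 2 and 2 in OE3-1, OE9-1 and OE17-4) were dropped, and 18 rows with the region written with 3 dots were kept. Members and gene lists were chosen with earlier results of these data known. Genes came from RefSeq's table for assembly TAIR10.1, whose coordinates are not printed; the gene column named the gene holding the midpoint, or a synonym, for 83.2% of the 328 members in genes. That table gives no strand, so positions are not oriented. Classes of distance to gene ends were cut at 250, 500, 1000 and 2000 bp. Expectations are closed forms, 1 minus the chance of no midpoint in the window. Named pairs were the first 10 by summed FDR rank, the 6 closest and the 10 nearest to OE9-1. The 5 with the highest summed read ranks, those at the limit and those in the lists were also named. A part for genes with 3 or more members named none. Spacings were grouped at 200 bp after the data were seen. Intervals are exact 95% (Clopper-Pearson), binomial order-statistic ones for medians, and cover counting error only. The code was tested on simulated data. Python 3.11.15, NumPy 2.4.6, pandas 2.3.3, SciPy 1.17.1 and Matplotlib 3.10.9 were used.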

Additional observations from a re-analysis of the deposited data

How the results depend on the processing

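The number of OE3-1 peaks near an OE17-4 peak followed the window and the lists used. It was 142 at 250 bp, 212 at 500 bp, 684 at 2000 bp, 71 for overlap and 86 within the upper 50% of both lists by FDR, where fewer peaks are held. The ratio of close peaks to expectation turned to 0.974 with densities inside and outside genes, fell to 1.04 with gene-end classes, and was 1.87 at 250 bp and 1.41 at 500 bp. For midpoints up to 200 bp apart the ratio of 1.90 moved to 1.56 with densities inside and outside genes. The mean ratio of the 3 pairs of lines was 0.919, and leaving out 1 line in turn gave 0.713 to 1.21, with 1.21 for OE3-1 and OE17-4 once OE9-1 was left out. A shared gene was found for 85.5% by the gene column. Reads per 100 bp gave a median ratio to other OE3-1 peaks of 1.03, where reads per peak gave 1. Unadjusted p-values called 29 OE17-4 partners, or 8.43%, beside 10.2% of that list. OE9-1 lay near 15 members at 500 bp and 38 at 2000 bp. The causes of these changes were not tested beyond the construction of each. None of the other 19 values changed direction. Among them, close peaks numbered 394 by gap between edges, 352 from the OE17-4 list and 357 without the rows written with 3 dots. The ratio up to 200 bp was 1.62 with gene-end classes and 1.65 in the upper 50% by FDR. Unadjusted p-values called 167 OE3-1 members against 128, which is 46.5% of members beside 40.6% of that list. The gene-end classes, the 200 bp limit and the mean over pairs were chosen after seeing the data. No paired analysis was possible because the inputs are not analysed here and each line is a single library. The number of members limits the precision of the shares, and the effect of sequencing depth was not tested.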
